A study of Mus musculus with 59 samples.

Results

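Granulocyte-macrophage progenitors (GMPs) of mice with floxed alleles of both Daxx and Pu.1 were compared with wild-type GMPs at 3 weeks post-induction (w.p.i.). Every gene of the deposited table was included. The comparison was chosen by genotype and not by any measured value. It held 5 of the 59 samples of the series, namely 2 Daxx F/F Pu.1 F/F samples (DKO) and 3 Daxx +/+ samples (WT), and 3 Daxx F/F samples (Daxx-KO) from the same table entered the fit. Of the 51810 genes listed, 13714 had a mean normalised value of at least 10 over the 8 libraries and were tested.

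All animals of the 3 groups were C57BL/6 mice that carried Mx1Cre (Cre +/-), a Cre recombinase driven by an interferon-inducible promoter, and all cells came from bone marrow. The controls carried Cre as well. Cre was induced by injections of pI:pC, a double-stranded RNA that raises interferon, and the labels give no age. Mx1Cre is not specific to GMPs, so the floxed alleles can be recombined in stem cells and in other interferon-responsive tissues of the host. The DKO mice had floxed alleles of both genes (Daxx F/F Pu.1 F/F), the Daxx-KO mice had floxed Daxx alone, and the WT mice were Daxx +/+. GMPs were sorted as lineage-negative cells with c-Kit, CD34 and CD16/32 but without Sca-1 on their surface. RNA was sequenced in bulk, so that fewer cells of a type and less RNA per cell cannot be told apart. Libraries of a group are named a, b and c here.

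Daxx is a chaperone that, together with Atrx, deposits the histone variant H3.3 on repetitive and silent chromatin. Pu.1, encoded by Spi1, is an ETS transcription factor that binds purine-rich DNA and drives myeloid and early lymphoid differentiation. GMPs are committed progenitors that give rise to neutrophils and monocytes.

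The GMP libraries held 11795984 to 13670666 reads over genes. Genes of primary granules were high in each of them: Mpo (myeloperoxidase) stood at 50665 and 107366 in the DKO libraries and at 75217 to 109114 in the WT libraries. Library DKO a stood apart from the others. Its correlation with DKO b over genes, which are not independent of each other, was 0.927 on the log2 scale, against 0.951 to 0.978 between WT libraries. DKO b was closer to each WT and Daxx-KO library (0.937 to 0.960) than to DKO a. A further difference in make-up crossed the genotypes: the summed value of 86 cytosolic ribosomal protein genes was 103087, 131634 and 158815 in DKO a, Daxx-KO b and WT b, and 197279 to 241439 in the other 5 libraries. Its part in the results was not tested beyond the fit with a term for these 3 libraries given below.

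The targeted genes were read first. Daxx (chr17:33909414-33915590, plus strand, mm10) had values of 62.9 and 78.9 in the DKO libraries, 55.1 to 83.0 over the Daxx-KO libraries, and 642, 622 and 688 in the WT libraries. DKO and Daxx-KO libraries overlapped each other and stayed below all WT libraries. The log2 fold change of Daxx in DKO against WT was -3.19 ± 0.27 (SE; limma, adjusted p = 0.0056), which is 9.18-fold lower by group means. Spi1 (chr2:91082390-91115756, plus strand, mm10) behaved differently. Its values were 3846 and 2989 in the DKO libraries, 3532 to 3958 over the Daxx-KO libraries, and 4384, 3348 and 4604 in the WT libraries, so that the groups overlapped. The log2 fold change was -0.26 ± 0.21 (SE), and limma gave an adjusted p of 0.997. The table holds a single total per gene, and the floxed segment of Spi1 is not given in the sources used here. A total that includes exons outside that segment does not check the deletion, so the Spi1 values neither support nor contradict the label.

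**Figure D1:**
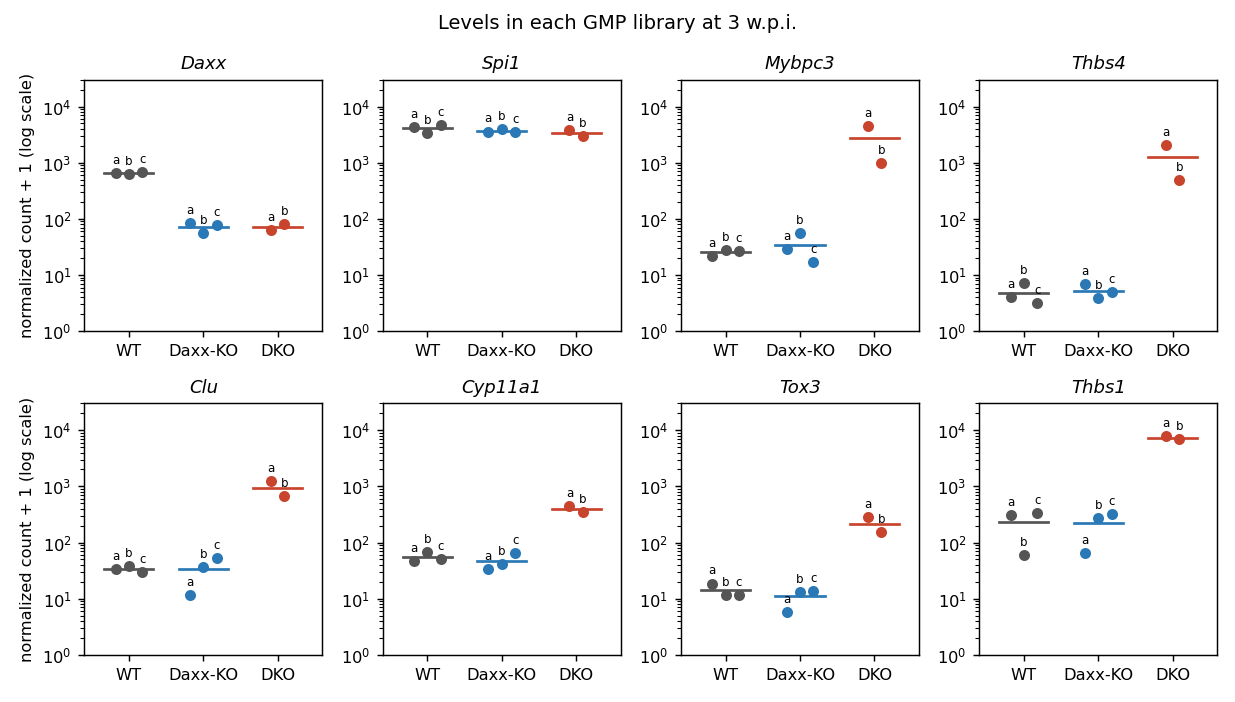
Normalised value + 1 (log axis) of each library for 8 genes, by group: DKO (2 libraries), Daxx-KO (3) and WT (3). Points are libraries and bars are group means. Daxx lies between 55.1 and 83.0 in both deleted groups and at 622 to 688 in WT, Spi1 overlaps between the groups, and for the other 6 genes both DKO libraries lie above all 6 other libraries.

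In DKO against WT GMPs, 40 genes passed an adjusted p of 0.05 by limma (0.292% of the genes tested), 29 of them higher (0.211%) and 11 lower (0.0802%). At an unadjusted p under 0.05 there were 961. The DKO libraries lay outside the range of the WT libraries for all 40 genes, against a background over all genes of 10.1% with both DKO libraries above and 8.41% with both below. The 40 genes were chosen for their difference between these same libraries, so that this count is a description. The median log2 fold change of all genes was -0.01. The calls rested on DKO a in part: 24 of the 29 rises were higher in DKO a than in DKO b, 10 of them at least 2 times. Without DKO a no gene passed by limma (733 at an unadjusted p under 0.05), without DKO b 87 did, and without WT a, b or c 5, 10 and 2 did. With 1 DKO library left, the lone library was assumed to vary like the libraries of the other groups. With a term for the 3 libraries with low ribosomal protein values, all 40 genes passed again, among 107 in all.

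**Figure D2:**
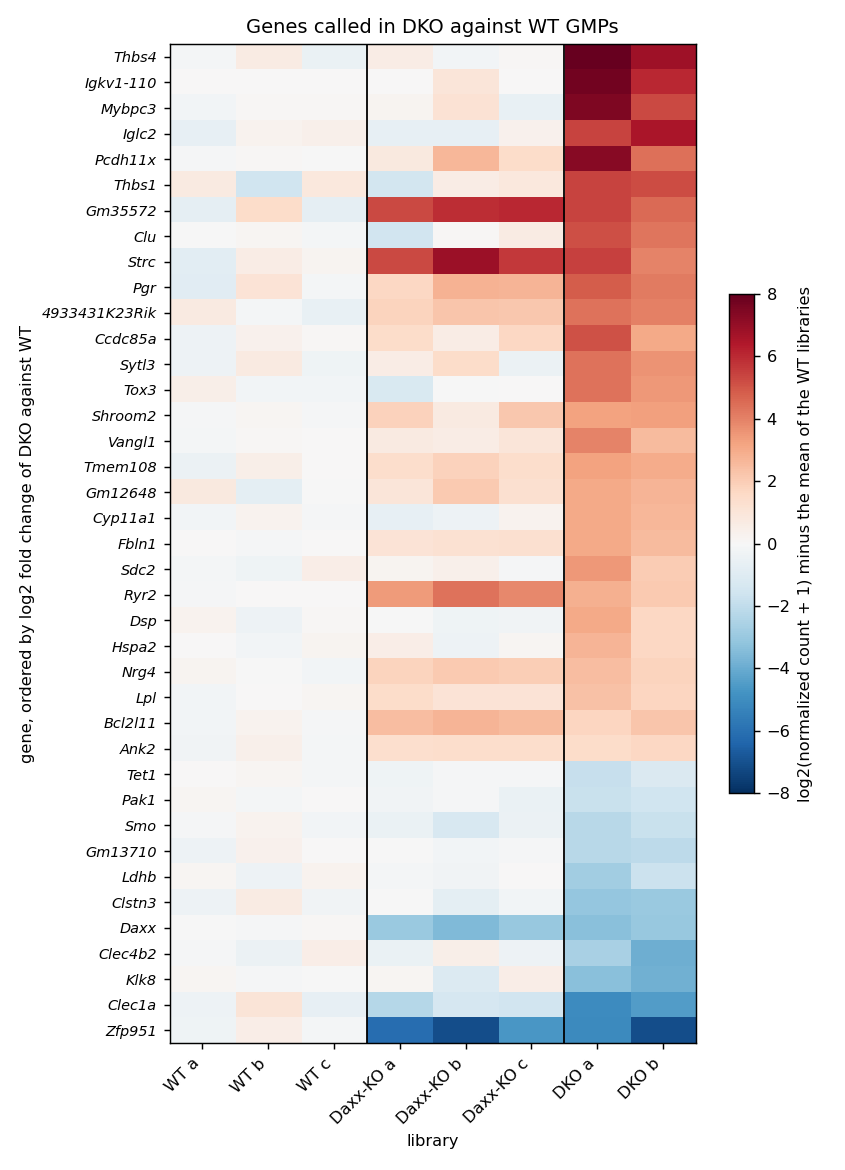
Of the 40 called genes, 39 (rows) in the 8 GMP libraries (columns), as log2(value + 1) minus the mean of the WT libraries. DKO a has the deepest colour for most rises, and the Daxx-KO libraries are as far from WT as the DKO libraries in a few rows, such as Ryr2, Bcl2l11, Nrg4 and Zfp951.

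Outside immunoglobulin genes, Thbs4 and Mybpc3 showed the biggest log2 fold changes of DKO over WT. The called genes are taken up here by role, a grouping made after their values were seen and not tested. Thbs4 (chr13:92751590-92794818, minus strand) encodes thrombospondin 4, a secreted glycoprotein of the extracellular matrix. It stood at 2061 and 498 in the DKO libraries, against 3.12, 6.18 and 2.18 in WT and 2.85 to 5.86 in Daxx-KO. Every WT and Daxx-KO library was below 10 for this gene, so it was tested because of its DKO values. The log2 fold change was 7.80 ± 0.71 (SE; limma, adjusted p = 0.0056). Mybpc3 encodes cardiac myosin-binding protein C, a sarcomere protein of heart muscle. It stood at 4579 and 996 in the DKO libraries, at 20.8, 26.5 and 26.1 in WT, and between 15.8 and 55.1 in Daxx-KO libraries. Its log2 fold change against WT was 6.40 ± 0.65 (SE; limma, adjusted p = 0.010). Both DKO libraries were far above the other 6 for both genes, and DKO a exceeded DKO b 4.14-fold for Thbs4 and 4.60-fold for Mybpc3. Estimated without DKO a, the log2 fold changes were 6.78 and 5.30, each with an adjusted p of 0.063.

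The windows around the start sites of these 2 genes are shown because these genes showed the biggest rises outside immunoglobulin genes. Each runs from 250 bases before to 50 bases after the RefSeq start (build GRCm38.p6), 5′ to 3′ on the strand of the gene. Capitals mark GAGGAA, the purine-rich sequence known as the PU box, in either orientation (TTCCTC on the opposite strand). The shorter core GGAA shared by ETS factors was not searched and is not marked.
Mybpc3 (chr2:91117894-91118193, plus strand): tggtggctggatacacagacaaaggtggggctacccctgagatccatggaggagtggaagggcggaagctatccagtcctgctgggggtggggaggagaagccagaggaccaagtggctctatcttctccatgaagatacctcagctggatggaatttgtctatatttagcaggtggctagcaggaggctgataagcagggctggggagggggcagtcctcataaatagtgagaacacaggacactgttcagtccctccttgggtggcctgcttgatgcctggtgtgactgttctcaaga
Thbs4 (chr13:92794769-92795068, minus strand): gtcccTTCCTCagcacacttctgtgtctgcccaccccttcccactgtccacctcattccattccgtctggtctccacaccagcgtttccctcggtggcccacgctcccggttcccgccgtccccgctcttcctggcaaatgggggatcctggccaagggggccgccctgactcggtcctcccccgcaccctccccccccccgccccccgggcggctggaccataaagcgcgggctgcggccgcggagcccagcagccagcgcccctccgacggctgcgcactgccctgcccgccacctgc

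The Mybpc3 window held no such match. The Thbs4 window held 1, near its upstream end and on the opposite strand. RefSeq windows were found for 30 of the 40 called genes, 46 windows in all. GAGGAA or TTCCTC was present in 7 of 31 windows of genes that rose (22.6%) and in 6 of 15 windows of genes that fell (40.0%), against 28.3% of all 32851 windows of the same length and 26.7% of windows of tested genes. Windows of the same gene can overlap, as those of Daxx do, so the same site can be counted more than once. By gene, a match was present in 5 of 20 that rose (25%) and 5 of 10 that fell (50%), against 30.7% of tested genes. The longer GAGGAAGT, which contains the core, was in no window of a called gene, against 3.20% of all windows. A match describes letters and not binding.

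Mybpc3 is the next gene downstream of Spi1 on the same strand. Its annotated start (chr2:91118144-91136516) lies 2388 bases past the annotated end of Spi1, and the exons of the pair do not overlap in GENCODE M21. Of the 20 other tested genes within 500 kb of Spi1, Mybpc3 was the only one called in DKO against WT GMPs. The remaining 19 had log2 fold changes between -0.76 and 0.61. In Pu.1-KO GMPs, a separate line described below, 2 of these neighbours passed, Mybpc3 and Fnbp4 (log2 fold change -0.66), in a comparison where 17.6% of all genes did. In DKO KLS cells of the same animals, where 17.6% of all genes passed as well, 5 of the neighbours did: Mybpc3, Lrp4 (2.77), Ckap5 (0.84), Psmc3 (0.65) and 1110051M20Rik (-1.17). Neighbours other than Mybpc3 were named after their values were seen.

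**Figure D3:**
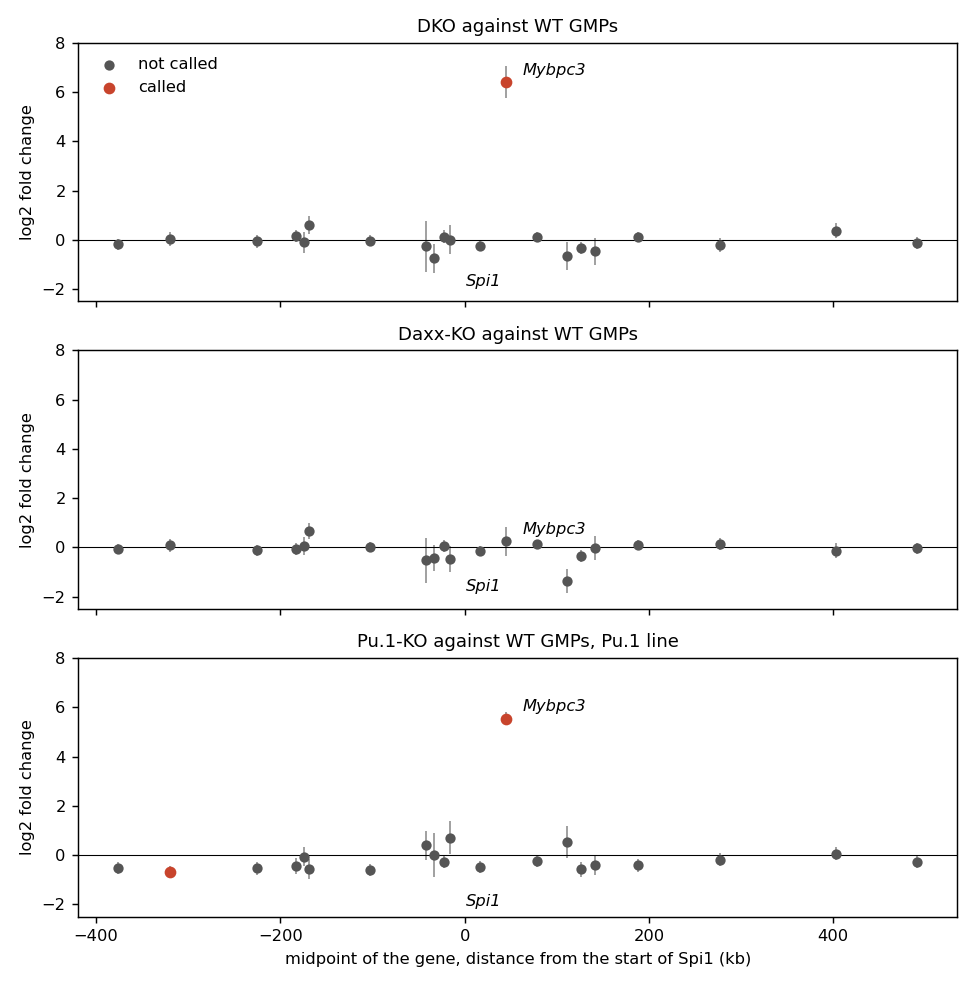
Log2 fold change (± SE) of Spi1 and the tested genes around it by the distance (kb) of the midpoint of each gene from the start of Spi1, for DKO and Daxx-KO GMPs against WT and for Pu.1-KO GMPs against the WT of that line; red points passed the test. Mybpc3 stands at 6.40, 0.26 and 5.55, and in DKO GMPs the other neighbours lie between -0.76 and 0.61.

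Further genes of the matrix, of adhesion and of secretion rose. Thbs1, thrombospondin 1, was the most abundant of the genes that rose, at 7839 and 6905 in the DKO libraries against 307, 59.1 and 334 in WT (5.32 ± 0.80 on the log2 scale with its SE; adjusted p = 0.037). Its values in Daxx-KO were 64.5, 274 and 323, which overlapped WT. Clu, the secreted chaperone clusterin, stood at 1225 and 665 against 33.2, 38.0 and 29.4 in WT (4.72 ± 0.59). Pcdh11x, a protocadherin encoded on the X chromosome, was far apart between DKO libraries, at 3203 and 445, against 18.7 to 21.2 in WT (5.84 ± 0.76). Fbln1, the matrix protein fibulin 1, rose to 114 and 78.9 from 12.4 to 13.5 in WT (2.78 ± 0.42). Thbs1 shares exon sequence with Gm29233 on the opposite strand, and use of strand in counting is not given in the sources used here.

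A pair of the genes that rose act in steroid hormone synthesis or response. Cyp11a1 encodes the mitochondrial enzyme that cuts the side chain of cholesterol in the first step of steroid synthesis. It reached 442 and 348 in the DKO libraries from 45.7, 66.2 and 50.1 in WT (a log2 difference of 2.86 ± 0.37; adjusted p = 0.021), with similar values in DKO a and DKO b. Cyp11a1 overlaps Gm17322 on its own strand, so that reads of the pair can be mixed. Pgr, the progesterone receptor, stood at 486 and 309 against 8.31, 35.3 and 14.1 in WT (4.49 ± 0.59). For Pgr the Daxx-KO libraries, at 52.7, 115 and 111, lay between both other groups. That gene passed against WT in DKO, with an adjusted p of 0.021, and had an adjusted p of 0.38 in Daxx-KO against WT.

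Genes of cell shape, polarity and vesicle traffic formed a further group among the rises. Shroom2, an actin-binding protein, stood at 202 and 209 against 19.6 to 22.9 in WT. Vangl1, a membrane protein of planar cell polarity, stood at 179.6 and 65.1 against 9.35 to 11.5. Sytl3, a synaptotagmin-like protein of vesicle traffic, stood at 214 and 130.2 against 7.27 to 16.8. Tmem108 encodes a transmembrane protein and was at 501 and 418 against 38.4 to 73.3. Their log2 fold changes ranged from 3.08 (Tmem108) to 3.96 (Sytl3). Ccdc85a, a coiled-coil protein, was at 624 and 145 against 12.5 to 22.1. Vangl1, Sytl3 and Tmem108 each overlap an exon of another gene on the opposite strand (Gm16160, Ezr and Gm16252).

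Tox3, an HMG-box nuclear protein, rose to 279 and 153 from 17.7, 10.6 and 10.9 in WT (a log2 difference of 3.92 ± 0.58; adjusted p = 0.033). Daxx-KO libraries were at 4.88 to 12.8. Strc, which encodes stereocilin, a protein known from the hair bundles of the inner ear, had 103 reads in DKO and 3 in WT, a ratio of 51.8 (95% interval 17.2 to 255, counting error only). Its Daxx-KO values of 67.4, 208 and 89.0 overlapped those of DKO, 77.1 and 26.6. Strc shares exon sequence with Ckmt1 on the opposite strand. The long non-coding RNAs Gm35572 and Gm12648 and the processed transcript 4933431K23Rik rose too, with log2 fold changes of 4.96, 2.87 and 4.18. Gm35572 was also high in Daxx-KO, at 63.5, 99.8 and 106 against 68.0 and 37.5 in DKO and 0, 3.53 and 0 in WT. 4933431K23Rik overlaps exons of Gm45714 and Ednra.

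Both called immunoglobulin genes were light chain genes. Igkv1-110, a kappa variable segment, was at 210.0 and 63.1 in the DKO libraries and at 0 in all WT libraries, which makes it at least 136-fold higher in DKO (271 reads, against a limit of 3 reads over the WT group). Iglc2, a lambda constant segment, had 210 reads in DKO and 2 in WT, a ratio of 158 (95% interval 43.3 to 1316, counting error only). Such segments belong to families of near-identical genes, so the assignment of reads to a single member is uncertain. Of 396 immunoglobulin genes listed, 25 were tested, 2 rose and 23 did not pass, while 0.211% of all genes tested rose. Only 9 of the 25 reached the mean of 10 over the WT and Daxx-KO libraries alone, and the other 16 were tested because of their DKO values. Both called genes were among those 16: Igkv1-110 had 0 reads in WT and 1 in Daxx-KO, and Iglc2 had 2 and 1. Summed over the list, the values were 8143.95 and 5709.86 in DKO, 2156.27 to 3597.62 in Daxx-KO and 1686.02 to 2749.75 in WT. Of 19 B lineage genes, 17 were tested and none passed in DKO against WT, with a median of 1.37. DKO lay above all WT libraries in 4 of the 17 and below in 0, beside backgrounds of 10.1% and 8.41% over all genes. In Daxx-KO against WT, 1 of these genes passed, beside 0.0948% of all genes tested, and their median was 2.34. Their sum was 8901.83 and 5329.14 in DKO, 4690.47 to 16592.4 in Daxx-KO and 2181.54 to 3214.38 in WT. Rag1 and Rag2, the recombinase genes of early lymphocytes, named after their values were seen, were listed at 0 in all libraries. Ebf1, the transcription factor that commits cells to the B lineage, was at 2483 in DKO a and 17.8 in DKO b, against 22.9, 368 and 21.8 in WT. The part of B lineage or antibody-secreting cells in these values was not tested.

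Of the 9 smallest rises, those named here were chosen after their values were seen, and the log2 fold changes of all 9 ran from 1.56 (Ank2) to 2.76 (Sdc2). Ank2, Dsp and Sdc2 belong to membrane and junction structure: ankyrin 2 ties membrane proteins to spectrin, desmoplakin anchors desmosomes, and syndecan 2 is a heparan sulphate proteoglycan. Dsp stood at 2001 and 785 in DKO against 187 to 300.2 in WT. Lpl, the lipase of circulating triglycerides, stood at 437 and 281 against 73.8 to 94.7. Hspa2, a chaperone of the Hsp70 family, stood at 1439.7 and 699 against 188 to 258. Ryr2, Nrg4 and Bcl2l11 were also in this group. Ank2, Dsp and Nrg4 share exon sequence with genes on the opposite strand.

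For a few rises the Daxx-KO libraries overlapped the DKO libraries or lay above them. Ryr2, a calcium release channel of the endoplasmic reticulum, was at 657 and 400.4 in DKO, between 984 and 1907 in Daxx-KO libraries, and between 86.2 and 96.2 in WT. Bcl2l11, which encodes the pro-apoptotic protein Bim, was at 1281 and 1847 in DKO, between 2193 and 2578 in Daxx-KO libraries, and between 343 and 477 in WT. For both genes the DKO libraries lay below all Daxx-KO and above all WT libraries. Nrg4, a ligand of the ErbB4 receptor, stood at 1149.5 and 707 in DKO, 711 to 879 in Daxx-KO and 175 to 243 in WT, with DKO and Daxx-KO overlapping. The log2 fold changes of DKO against WT were 2.46 ± 0.31, 1.96 ± 0.22 and 2.13 ± 0.25 (SE). Those of Daxx-KO against WT were 3.86 ± 0.27, 2.57 ± 0.20 and 1.95 ± 0.23. Both comparisons used the same WT libraries, so they are not independent of each other.

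Among the 11 genes that fell, Daxx and Zfp951 were as low in Daxx-KO as in DKO. Zfp951, a zinc finger gene on chromosome 5, stood at 7.10 and 0.986 in DKO, at 9.88 or less in each Daxx-KO library and at 209, 387 and 244 in WT (a log2 difference of -6.08 ± 0.83; adjusted p = 0.027). Its relatives can share reads with it. Of 40 tested genes named Zfp900 to Zfp999, it alone passed (0 rose), and the median of the list was -0.11.

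The other 9 falls were in genes whose Daxx-KO libraries stayed above all DKO libraries. Over all genes tested, this held for 9.98%. None of these 9 passed in DKO against Daxx-KO. Receptors with a C-type lectin domain were among them: Clec1a had 3 reads in DKO and 240 in WT, a ratio of 53.1 (95% interval 17.9 to 259, counting error only), and Clec4b2 was at 61.9 and 24.7 against 362, 278 and 567. For Clec1a the Daxx-KO libraries, at 12.7 to 24.7, were also below all WT libraries, which had 41.3 to 137. Smo, the membrane protein that transmits Hedgehog signals, stood at 103 and 140.1 in DKO, 196 to 356 in Daxx-KO and 422 to 599 in WT. Pak1, a kinase downstream of Rac and Cdc42, stood at 407 and 463 in DKO against 1257 to 1555 in WT, with a log2 fold change of -1.69 ± 0.19 (SE; adjusted p = 0.015).

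Enzymes fell in this group too. Tet1, which oxidises 5-methylcytosine in DNA, was at 171 and 278 against 637, 692 and 548 in WT (a log2 difference of -1.51 ± 0.24; adjusted p = 0.043). Ldhb, the B subunit of lactate dehydrogenase, was at 69.0 and 149 against 361 to 585 (-2.24 ± 0.34). Klk8, a secreted serine protease, was at 3.04 and 1.97 against 38.0 to 44.7, and it overlaps 2310002F09Rik on the opposite strand. Clstn3, a calsyntenin of the cadherin superfamily, was at 17.2 and 19.7 against 118 to 252, and the long non-coding RNA Gm13710 was at 34.5 and 37.5 against 123 to 208. DKO a was the lower of the pair for 8 of the 11 falls.

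The Daxx-KO libraries place the 40 genes against single loss. Of the 29 rises, DKO lay above all Daxx-KO libraries in 24, overlapped them in 3 (Nrg4, Strc and Gm35572) and lay below in 2 (Ryr2 and Bcl2l11). Over all genes tested, DKO lay above all Daxx-KO libraries in 10.7% and below in 9.98%. Daxx-KO lay above all WT libraries in 17 of the rises and overlapped WT in 12, and over all genes it lay above WT in 4.64% and below in 3.46%. Of the 11 falls, DKO lay below all Daxx-KO libraries in 9. The 40 genes were chosen for their DKO and WT values, so that these counts are a description. In Daxx-KO against WT 13 genes passed (0.0948%; 9 higher, 0.0656%, and 4 lower, 0.0292%), 7 of them among the 40, and in DKO against Daxx-KO 8 passed (0.0583%), all higher in DKO. These 8 were Thbs4, Mybpc3, Clu, Cyp11a1, Tox3, Trib1, Itgb7 and 1700030N03Rik, and 5 of them are among the 40.

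The other three were named after their values were seen. Trib1, a pseudokinase that directs degradation of C/EBPα, stood at 253 and 254 in DKO, 34.2 to 59.3 in Daxx-KO and 63.5 to 77.3 in WT. Itgb7, an integrin chain of lymphocyte homing, stood at 1293 and 1087 in DKO, 276 to 325 in Daxx-KO and 398 to 680.1 in WT. Their adjusted p-values in DKO against WT were 0.084 and 0.11 (limma). The long non-coding RNA 1700030N03Rik had 579 and 299 in DKO and 368 to 469.6 in WT, which overlapped, and 30.3 to 64.6 in Daxx-KO. Fbp1, a gluconeogenic enzyme also named afterwards, stood at 198 and 346 in DKO, 442 to 653 in Daxx-KO and 106 to 189 in WT, and in none of the 3 comparisons did it pass (adjusted p = 0.60 against WT).

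**Figure D4:**
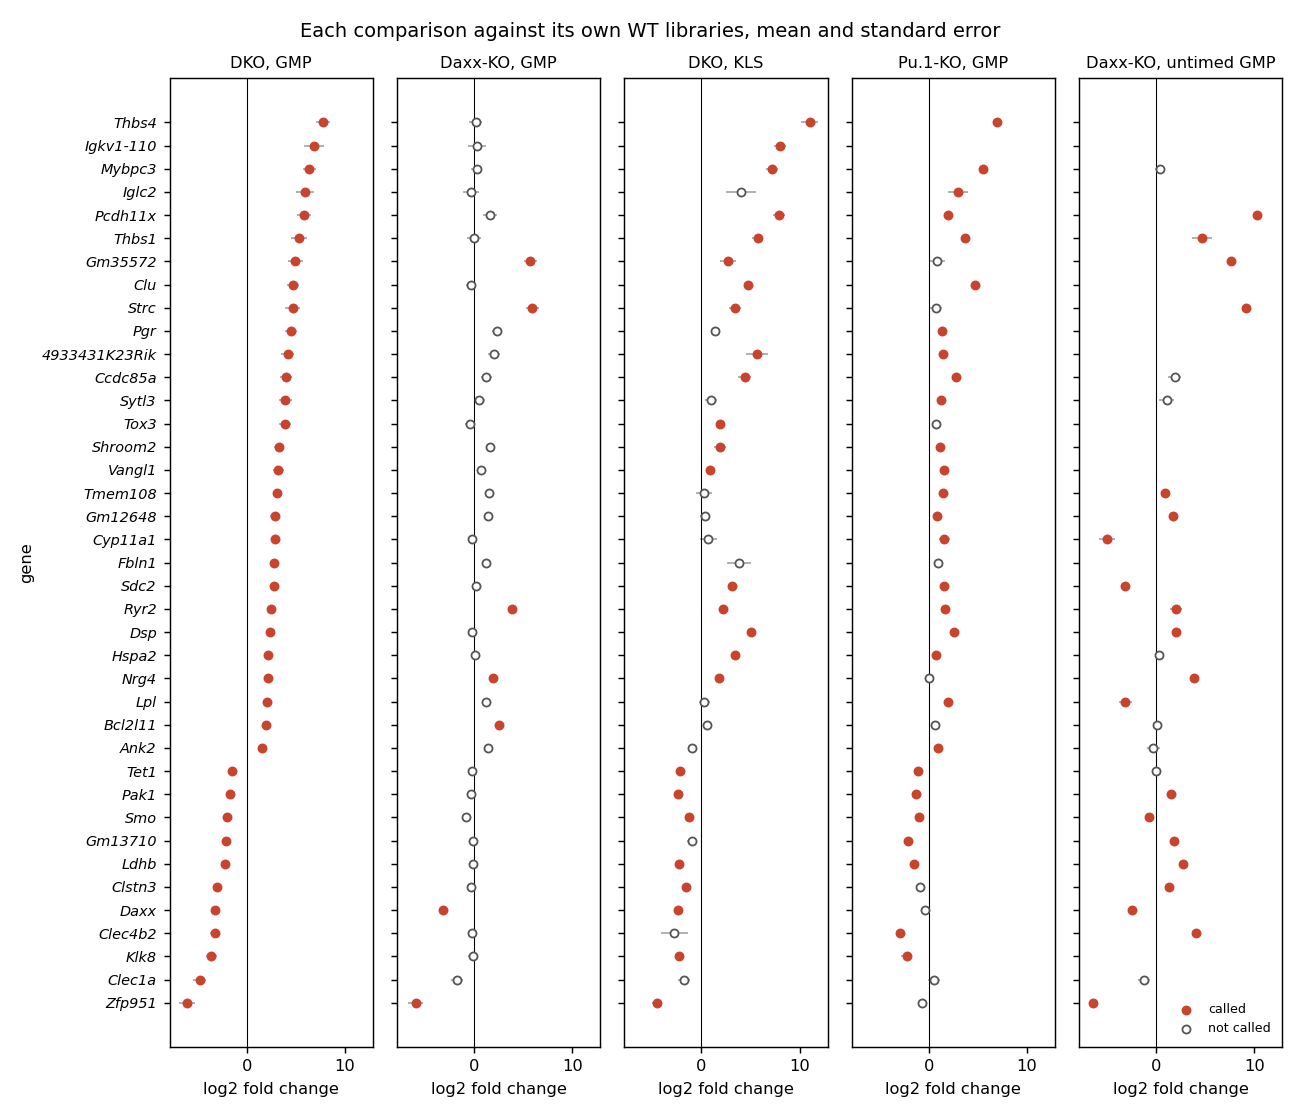
Log2 fold changes (± SE) of 39 of the 40 called genes in DKO GMPs beside those in Daxx-KO GMPs, DKO KLS cells, Pu.1-KO GMPs and untimed Daxx-KO GMPs, each against its own WT libraries; red points passed the test and a gene without a point was not tested. Mybpc3 and Thbs4 stand at 0.26 and 0.16 in Daxx-KO GMPs and at 5.55 or more in DKO cells and Pu.1-KO GMPs.

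KLS cells, the c-Kit+ Sca-1+ fraction that contains the stem cells, were sorted from the same animals, so they are a second population and not independent replicates. There, 27 of the 40 genes passed in the same direction and none in the opposite one, 19 of the rises and 8 of the falls. The background was high, since 17.6% of 15200 genes passed in KLS cells, 9.24% higher and 8.40% lower. Thbs4 reached 5922 and 3044 in DKO KLS cells against 1.08, 0 and 3.00 in WT, and Mybpc3 reached 6428 and 3333 against 14.0, 40.6 and 49.0. Spi1 was higher in DKO KLS cells, at 3330.4 and 2993 against 1676, 1669 and 2320.0 (log2 fold change 0.76 ± 0.17, SE; limma, adjusted p = 0.016). Iglc2 was at 692 and 732 in DKO KLS cells, but WT c had 703 and the other WT libraries 10.8 and 8.83. WT c was also high for Ighm in KLS cells, at 110066 against 7163 and 2669.

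A separate line with floxed Pu.1 alone gave Pu.1-KO GMPs (2 libraries) and their own WT (2 libraries), from other animals than the DKO comparison. Of the 39 called genes tested there, 29 passed in the same direction, 22 rises and 7 falls, and none in the opposite one. The background was 17.6% of 19337 genes, 9.15% higher and 8.49% lower. Thbs4 stood at 3389 and 3884 against 30.7 and 27.4, Mybpc3 at 2317 and 2945 against 72.0 and 41.8, and Clu at 311 and 1088 against 32.8 and 14.4. Thbs1 also passed, though its WT libraries were far apart, at 2365 and 201. The 10 genes that did not pass were Daxx, Zfp951, Bcl2l11, Nrg4, Strc, Gm35572, Tox3, Fbln1, Clec1a and Clstn3. Daxx itself was at 558 and 701 against 788 and 787. Spi1 was at 2589 and 2707 against 3395 and 3934, with an adjusted p of 0.15.

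GMPs of a Daxx F/F line without a stated time after induction (2 libraries of each genotype) are set beside these values with caution. The labels do not say how the mice were treated, and the GMP set that the study's methods describe apart from those at stated times came from irradiated mice transplanted with bone marrow, so these GMPs may come from transplanted animals. Of 29 called genes tested, 12 passed in the same direction and 9 in the opposite one, in a table where 33.0% of 12744 genes passed. Zfp951 was at 2.03 and 1.63 against 189.9 and 305, and Nrg4 rose by 3.89 on the log2 scale. Those in the opposite direction included Cyp11a1 (-5.00), which stood at 0 and 1.22 in Daxx-KO, against 57.2 and 38.0 in WT, and Clec4b2 (4.11), Ldhb (2.78) and Pak1 (1.55). Pcdh11x, at 32014 and 40788 in Daxx-KO, against 23.4 and 31.6 in WT, had the largest rise there of the called genes (10.32).

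Gene lists of lineages and pathways were read by their counts and medians, against the median of -0.01 over all genes. Of 27 genes taken as Pu.1 targets, 26 were tested and none passed. Their median log2 fold change was -0.36 in DKO and -0.31 in Daxx-KO, with 19 lower and 7 higher in DKO. Its most abundant members were spread widely within WT: Lyz2, a lysozyme gene of phagocytes, was at 12714 and 8452 in DKO and at 23219, 4649 and 22677 in WT, and Cybb, the phagocyte oxidase subunit, was at 9335 and 7968 against 15639.5, 4556 and 14589.9. Summed values of the list were 65663.0 and 63476.2 in DKO, between the lowest (45978.3) and highest (94009.4) WT library. Late neutrophil granule genes (17 tested) and primary granule genes (12 tested) had no called member and medians of -0.21 and -0.06, and so had 19 monocyte and dendritic cell genes (0.09) and 17 myeloid transcription factors (-0.03).

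Stem cell genes had the lowest median of the lists, -0.76 over 14 tested genes, against 0.13 in Daxx-KO, and none passed. The DKO libraries were below all WT libraries in 5 of the 14, beside the background of 8.41%. Meis1, a homeobox factor of stem cells, was at 419 and 371 in DKO, 1181 to 1339 in Daxx-KO and 1021, 2110.3 and 556 in WT (adjusted p = 0.34). Cd34, a surface protein of progenitors that the gate used, was at 300.3 and 816 in DKO and 871 to 1439.5 in WT (adjusted p = 0.41). Kit, the receptor that the gate also used, was at 4025 and 3736 against 4516 to 5957. Angpt1, a niche factor made by stem cells, was at 2077 and 629 against 927 to 3979. Meis1 shares exon sequence with Gm37818 on its strand.

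Of 33 tested interferon response genes none passed, 26 were lower and 7 higher, and the median was -0.17. DKO lay below all WT libraries in 9 of them and above in 1, beside backgrounds of 8.41% and 10.1% over all genes. All groups had received pI:pC. RNA and DNA sensing genes (14 tested, median -0.02), genes that silence retroelements (19, -0.07), cell cycle genes (22, -0.06), p53 targets (14, 0.29), immediate early genes (16, 0.09), glycolysis and gluconeogenesis genes (17, -0.02) and erythroid and megakaryocyte genes (17, -0.41) had no called member. Of 11 tested genes of the Daxx, Pu.1 and H3.3 chaperone list, Daxx alone passed. Atrx, the partner of Daxx, was at 7997 and 6101 in DKO against 7251 to 9446 in WT.

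Several lists differed as much within a group as between groups. Mast cell, basophil and eosinophil genes (14 tested, 0 called, median 0.30) summed to 33522.4 in DKO a and 105604 in DKO b, and to 18603.1 in WT b and 117282 in WT a. Replication-dependent histone genes (47 tested, median -0.39) and cytosolic ribosomal protein genes (73 tested, median -0.36) had no called member either. T and NK cell genes were sparse, with 4 of 15 tested and sums of 594.538 and 205.157 in DKO against 62.024 to 276.249 in WT. Mitochondrially encoded protein genes were listed at 0 in all libraries.

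**Figure D5:**
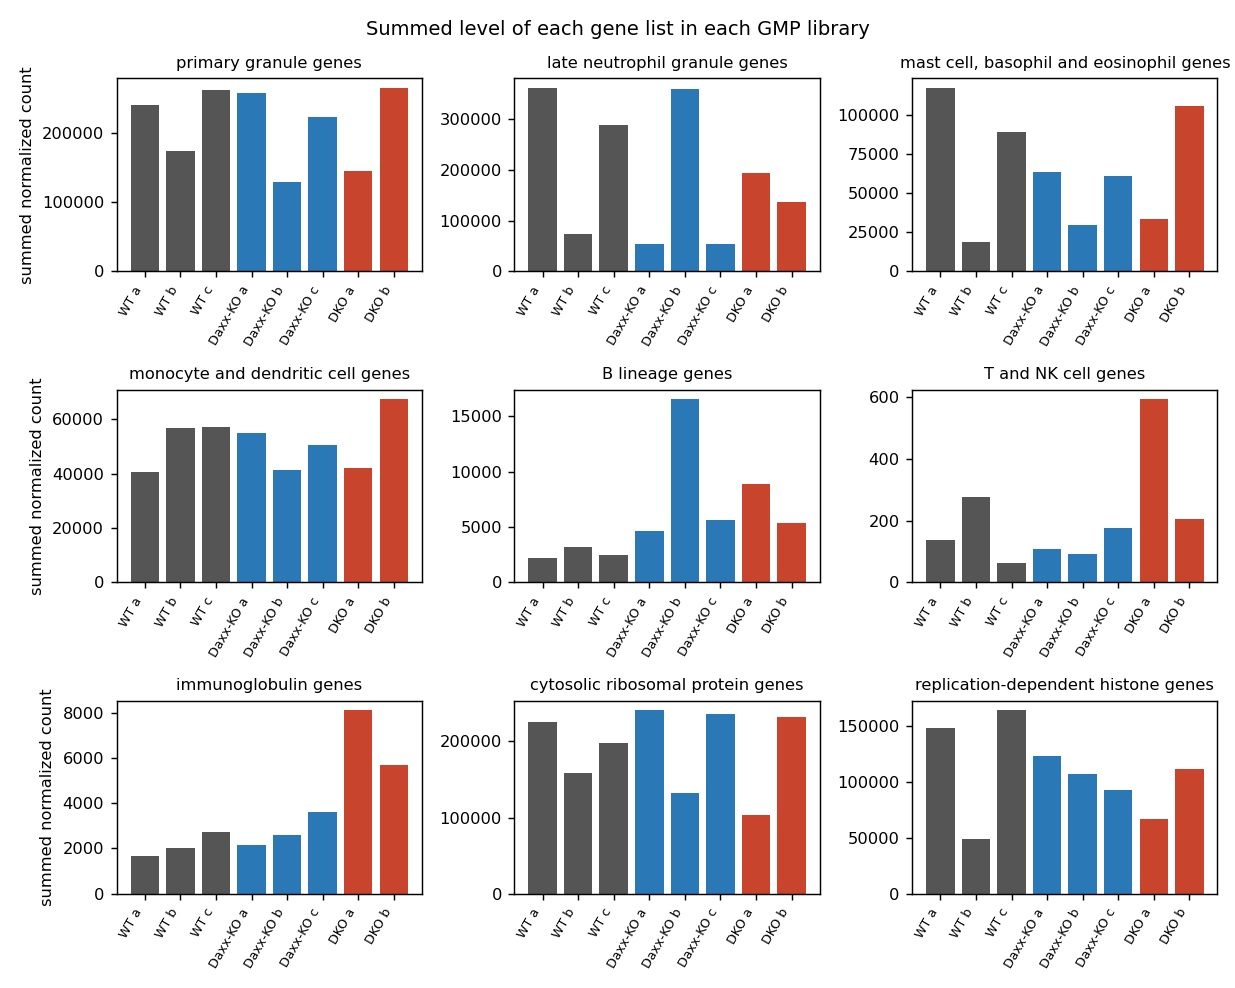
Summed normalised value of 9 gene lists (bars, linear axis from 0) in each of the 8 GMP libraries, coloured by group. B lineage and immunoglobulin sums are above all WT libraries in both DKO libraries. B lineage sums are also above all WT libraries in the Daxx-KO libraries (4690.47 to 16592.4). The ribosomal protein sums of the DKO libraries, 103087 and 231800, span those of WT, 158815 to 225864.

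Counts of repeats were given for 6 of the libraries (DKO a and b, Daxx-KO a and c, WT a and b) and 889 subfamilies, of which 798 were tested. Retroelements are a class of sequence that Daxx and H3.3 help to silence. In DKO against WT, none passed by edgeR (0% of those tested), with 26 at an unadjusted p under 0.05, and DESeq2 called 5. These 5, named after their values were seen, were endogenous retroviral elements, all higher in DKO. MMVL30-int stood at 6565 and 6063 CPM (relative to all repeat counts of a library) in DKO, 3223 and 3299 in Daxx-KO, against 1874 and 1239 in WT (log2 fold change 2.02 ± 0.22, SE; edgeR, adjusted p = 0.054). MMTV-int stood at 499.9 and 737 in DKO, 394 and 436 in Daxx-KO, against 97.2 and 158 in WT (2.30 ± 0.30; adjusted p = 0.074). RLTR3_Mm, RLTR6_Mm and IAPLTR3-int had edgeR adjusted p-values of 0.26, 0.42 and 0.42.

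Of 24 repeat families none passed and 2 had an unadjusted p under 0.05. IAP elements, retrotransposons with intact copies in the mouse genome, had a log2 fold change of 0.63 ± 0.47 (SE; edgeR, adjusted p = 0.85), with 12921 and 27153 CPM in DKO against 13808 and 12826 in WT. The share of repeats differed between libraries of a group: repeat counts per 100 gene reads were 21.8 in DKO a and 11.4 in DKO b, and 12.5 in WT a and 20.3 in WT b. With library sizes taken from the gene reads, no subfamily passed.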

How the data were processed

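Per the labels, RNA of sorted bone marrow cells was sequenced. The authors' deposited gene tables hold DESeq2-normalised counts (unit signal; cutadapt 1.13, STAR 2.5.3 and DESeq2 1.16.1 in the submitters' processing notes; build mm10), and their repeat table holds raw counts per subfamily. The labels and the study's methods name different library kits, so the kit, and with it the use of strand, was not settled. The counter is not given in the sources used here. Columns were matched to samples by animal number and genotype ending (WT c by the control ending of the same number in KLS cells), and 81 of 111 columns of values were not used. All values came out as whole reads (100%, tolerance 0.01), 11795984 to 13670666 per GMP library.

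Values of at least 10 on average were tested as log2(value + 1) with limma 3.58.1 (trend, all 8 GMP libraries in 1 fit, Benjamini-Hochberg, adjusted p under 0.05) in R 4.3.3, so fold changes of low genes are understated. Repeat counts and recovered reads were tested with edgeR 4.0.16 (quasi-likelihood), and DESeq2 1.42.0 was an alternative. Scripts were tested on simulated data. The columns carry separate animal numbers. P-values measure the spread between these libraries only. Positions came from GENCODE M21 (13695 of 13714 genes) and promoter windows from RefSeq. The plan was to name Daxx, Spi1, all called list members, and up to 20 rises and 20 falls by size. It also allowed up to 4 of the most abundant members of each list, but for many lists fewer or none were named. Members and lists were chosen with earlier results of these data known. Intervals and floors cover counting error only. Results of 1 called gene are not reported here beyond the counts.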

Additional observations from a re-analysis of the deposited data

How the results depend on the processing

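Of 40 genes called in DKO against WT, edgeR on the recovered reads called 36 (41 in all) and DESeq2 all 40 (263 in all). Fitting only the 2 groups gave 5 and a mean of at least 50 gave 22, while another pseudocount, no filter or TMM scaling stayed within 1.5 times. A term for the 3 libraries with low ribosomal protein values, chosen after seeing the data, gave 107. Leaving out each replicate gave 0 (without DKO a) to 87 (without DKO b). Neither Spi1 nor any called gene reversed direction under these settings, and the calls lost were 35 with 2 groups, 6 without a filter, 2 at a pseudocount of 5 and 0 with TMM. For DKO against Daxx-KO the count of 8 became 0 in 2 groups only, 280 by DESeq2, 18 with TMM, 20 by edgeR, 5 at a mean of at least 50, 13 with no filter, 17 at a pseudocount of 5, 56 with the library term and 0 (without DKO a or Daxx-KO c) to 71 (without DKO b) on leaving out a replicate. For Daxx-KO against WT the count of 13 became 79 by DESeq2, 32 with the library term and 4 (without WT c) to 11 on leaving out a replicate, with 5 without each Daxx-KO library. Of the called genes, 29 passed in Pu.1-KO GMPs, and 8 to 30 without a replicate: 8 without b and 12 without a of the WT of that line, where 151 and 519 of 19337 genes passed against 3412 with all libraries. The median of all genes in that line shifted to 0.11 by edgeR. Subfamilies of repeats called went from 0 to 5 by DESeq2, 4 without TMM, 2 without a filter and 0 to 9 (without DKO a) on leaving out a replicate. The causes were not tested. The columns of the 3 w.p.i. tables carry animal numbers, and each animal has a single genotype. No paired analysis was possible between genotypes, because no sample title pairs animals of different genotypes. GMP and KLS libraries of the same animals were not compared as pairs. The DKO mean rests on 2 libraries, and the limma fit took the spread of each gene from all 8 GMP libraries together. Genes under about 10 normalised counts were not tested.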
